A study of Mus musculus with 16 samples.

Results

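The genes described here are the cytochrome P450, UDP-glucuronosyltransferase (UGT) and glutathione S-transferase (GST) genes of the array, chosen by symbol alone: every platform symbol that begins with Cyp, a number and a letter, with Ugt and a number, or with Gst, one of the class letters a, m, o, p or t, and a number. They were 128 of the 19505 genes measured, 98 Cyp, 11 Ugt and 19 Gst genes, each with a single probe set. Among them were 3 pseudogenes. The olfactory Ugt2a1 and the Ugt1a genes were not analysed here.

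The levels were read on Affymetrix arrays from sorted cells of the olfactory mucosa of S100a5-tauGFP mice, a C57BL/6 reporter strain in which a tau-coupled green fluorescent protein (GFP) is tied to S100a5. All 24 mice, of both sexes and 7 to 12 weeks old, spent 40 h alone in chambers of clean air flowing at 3.1 L/min, and the stimulus began after 26 h, with a pulse of 10 s every 20 min. The odor groups received isoamyl acetate and whiskey lactone together, and the vehicle groups filtered air. Cells of 3 mice were combined into a pool, each treatment had 4 pools, and each pool gave a library titled GFP+ and a library titled GFP-, so there were 4 groups of 4 libraries and 16 arrays. Both libraries of a pool came from the same 3 mice, and a pool is the replicate.

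Cytochrome P450 enzymes are haem proteins that add oxygen to fat-soluble molecules; some of them act on foreign chemicals and odorants, others on sterols, steroids, retinoids and fatty acids. UGT enzymes then attach a sugar acid, and GST enzymes attach glutathione, which makes the products easier to remove. In the olfactory mucosa the foreign-compound P450 and conjugating enzymes are known chiefly from sustentacular cells, which support the neurons, and from Bowman glands, which make the mucus. Cyp2a5, Cyp1a2 and Cyp2g1 are P450 enzymes known from that tissue.

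Titles and cell type tags named opposite fractions in 16 of 16 samples, and the activity marker S100a5 went against the titles. Its odor levels were 15.39, 15.11, 15.05 and 15.55 for pools 1 to 4 titled GFP+, below the 16.04, 16.66, 16.55 and 16.48 of the same pools titled GFP-. The fractions are therefore called "titled GFP+" and "titled GFP-", and with the tags in place of the titles every difference between fractions would change sign. In vehicle pool 3 the order was turned, with S100a5 at 16.37 in the library titled GFP+ and 14.99 in that titled GFP-. Each result is given on all 16 arrays and on the 14 arrays without that pool. Omp, the marker of mature olfactory neurons, lay between 18.44 and 18.68 in every library.

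All values are on the log2 scale of the deposited table, whose values ran from 1.69 to 19.4; a level is a library's value and a difference is titled GFP+ minus titled GFP- unless stated otherwise. The table exceeds 16, the limit of a 16-bit scanner on this scale, so the step of the scale is not known and no folds are given. The median of the 128 mean levels was 4.17, against 6.90 over all genes. Probe sets with negative-control identifiers had a median level of 5.45 and a 95th percentile of 9.56. Mean levels of 32 enzyme genes lay above the first value and of 9 above the second: Cyp2a4, Cyp2a5, Cyp2f2, Cyp2g1, Cyp2j12, Cyp2s1, Cyp2u1, Cyp20a1 and Gstm1. A level under the control median cannot be told from background.

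Cyp2a5 and Cyp2a4 are near-copies in one stretch of chromosome 7, with other Cyp2 genes between them. Cyp1a2 is a P450 that oxidises aromatic amines, Gstp1 and Gstp2 are a neighbouring pi-class pair, and Gsta3 is of the alpha class. Promoter sequences are shown for these 6 genes, whose levels differed between the fractions. Each is the run of 250 bases before the start of the gene in RefSeq (mouse assembly GRCm38.p6), 5′ to 3′ on the strand of the gene, with matches to the searched motifs in capitals. The windows lie at chr7:26835089-26835338 (+), chr7:26306942-26307191 (+), chr9:57683656-57683905 (-), chr19:4037913-4038162 (-), chr19:4042222-4042471 (-) and chr1:21240335-21240584 (+).
Cyp2a5: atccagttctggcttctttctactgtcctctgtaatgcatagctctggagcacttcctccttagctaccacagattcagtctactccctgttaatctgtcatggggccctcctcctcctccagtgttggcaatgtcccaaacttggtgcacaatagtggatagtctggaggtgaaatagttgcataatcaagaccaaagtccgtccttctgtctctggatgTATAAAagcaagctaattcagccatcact
Cyp2a4: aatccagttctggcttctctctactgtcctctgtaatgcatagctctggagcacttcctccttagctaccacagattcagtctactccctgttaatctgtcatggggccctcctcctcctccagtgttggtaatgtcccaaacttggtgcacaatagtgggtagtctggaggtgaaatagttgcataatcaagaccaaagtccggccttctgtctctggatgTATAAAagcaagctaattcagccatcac
Cyp1a2: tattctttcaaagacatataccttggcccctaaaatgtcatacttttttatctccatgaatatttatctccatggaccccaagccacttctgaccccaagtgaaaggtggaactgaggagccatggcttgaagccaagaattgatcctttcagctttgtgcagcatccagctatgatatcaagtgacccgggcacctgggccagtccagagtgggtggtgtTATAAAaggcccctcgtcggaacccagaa
Gstp1: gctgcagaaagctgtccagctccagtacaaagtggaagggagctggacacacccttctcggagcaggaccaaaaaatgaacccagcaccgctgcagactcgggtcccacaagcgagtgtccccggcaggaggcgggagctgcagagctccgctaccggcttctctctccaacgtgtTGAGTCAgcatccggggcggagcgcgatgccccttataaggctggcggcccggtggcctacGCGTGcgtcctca
Gstp2: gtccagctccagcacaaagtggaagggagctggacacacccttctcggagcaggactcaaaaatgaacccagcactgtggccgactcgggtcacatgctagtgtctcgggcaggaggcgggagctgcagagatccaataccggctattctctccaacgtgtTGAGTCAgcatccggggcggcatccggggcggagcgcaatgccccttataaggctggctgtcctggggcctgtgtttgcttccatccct
Gsta3: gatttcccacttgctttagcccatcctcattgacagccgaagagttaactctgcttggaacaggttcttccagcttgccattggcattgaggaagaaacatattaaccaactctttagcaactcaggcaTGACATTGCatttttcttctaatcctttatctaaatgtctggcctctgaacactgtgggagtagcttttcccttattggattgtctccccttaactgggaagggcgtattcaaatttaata

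The motifs were searched on both strands: TATAAA, the TATA box; TGACNNNGC, the core of the antioxidant response element; GCGTG, the core of the xenobiotic response element; and TGACTCA, the AP-1 site. A TGACTCA followed by GC also counts as TGACNNNGC, and no matches overlapped in these windows. The Cyp2a5 and Cyp2a4 windows were 97.6% identical, with 245 of 251 aligned positions equal, and both held TATAAA, at 29 to 24 and at 28 to 23 bases before the start. Cyp1a2 held TATAAA at 29 to 24 bases before its start. Gstp1 and Gstp2 were 78.1% identical, and both held TGACTCA on the other strand, printed here as TGAGTCA, at 74 to 68 and at 89 to 83 bases. Gstp1 also held GCGTG at 13 to 9 bases, and Gsta3 held TGACNNNGC at 121 to 113 bases. The window of Cyp2f2, which also differed between the fractions, was searched too. It held none of these motifs and is not printed. Among the 99 enzyme genes with a window, TATAAA was present in 30 (30.3%, against 12.4% of all 32851 windows), TGACTCA in 8 (8.08%, against 4.46%), GCGTG in 20 (20.2%, against 28.2%) and TGACNNNGC in 6 (6.06%, against 10.2%). These shares differ in unit: an enzyme gene counted once if any of its windows matched, while the share of all windows counts each window. A match is a description of the letters and not evidence of binding.

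Between the fractions, on 14 arrays in odor, 14 of 128 were higher and 5 lower in libraries titled GFP+ (limma adjusted p under 0.05), which is 19 genes where 13.2% of all genes passed, 8.59% higher and 4.59% lower. The 14 higher genes were 6 Cyp genes (Cyp2a5, Cyp2a4, Cyp2f2, Cyp2g1, Cyp1a2 and Cyp27a1) and 8 Gst genes, and the 5 lower genes were all Cyp genes. On all 16 arrays 3 were higher (Gsta3, Gstp1 and Cyp27a1) and 4 lower (Cyp7a1, Cyp21a1, Cyp3a11 and Cyp4a31), where 6.97% of all genes passed, 4.57% higher and 2.39% lower. In vehicle on 14 arrays 6 were higher and 0 lower, where 11.2% of all genes passed, 7.86% higher and 3.32% lower, and all 6 were among the 14 of odor. In vehicle on 16 arrays 0 of 128 and 0 of all genes (0%) passed by limma, while 6 of the 128 and 1912 of all genes had an unadjusted p under 0.05. The share of the 128 that passed in odor was near that of all genes, and the median difference of the 128, -0.07, was near that of all genes, -0.08.

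With the arrays centred on their medians the split turned toward lower levels, with 13 higher and 51 lower in odor and 5 higher and 33 lower in vehicle on 14 arrays, and 5 higher and 28 lower in odor on 16 arrays. All genes turned the same way under centring: 6.89% were higher and 44.8% lower in odor and 6.78% and 36.3% in vehicle on 14 arrays, and 5.22% and 24.2% in odor on 16 arrays. Centring moved the median difference of all genes in odor from -0.08 to -0.43 and in vehicle from -0.10 to -0.46. With the pool of mice as a block, 0 genes of the 128 passed in odor on 16 arrays, where 0.0103% of all genes passed. On 14 arrays with that block 16 were higher and 6 lower in odor, where 8.77% of all genes were higher and 4.79% lower, and 11 were higher and 0 lower in vehicle, where 8.2% were higher and 3.67% lower.

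Of the 19 Gst genes 8 (42.1%) were higher and 0 lower in odor on 14 arrays, where 8.59% of all genes were higher and 4.59% lower, with a median difference of 0.64. Of the 98 Cyp genes 6 (6.12%) were higher and 5 (5.1%) lower, with a median of -0.13. Of the 11 Ugt genes 0 passed, with a median of -0.20. In vehicle on 14 arrays the counts of higher genes were 4 of 19, 2 of 98 and 0 of 11, where 7.86% of all genes were higher. The contrast between families was not tested.

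**Figure D1:**
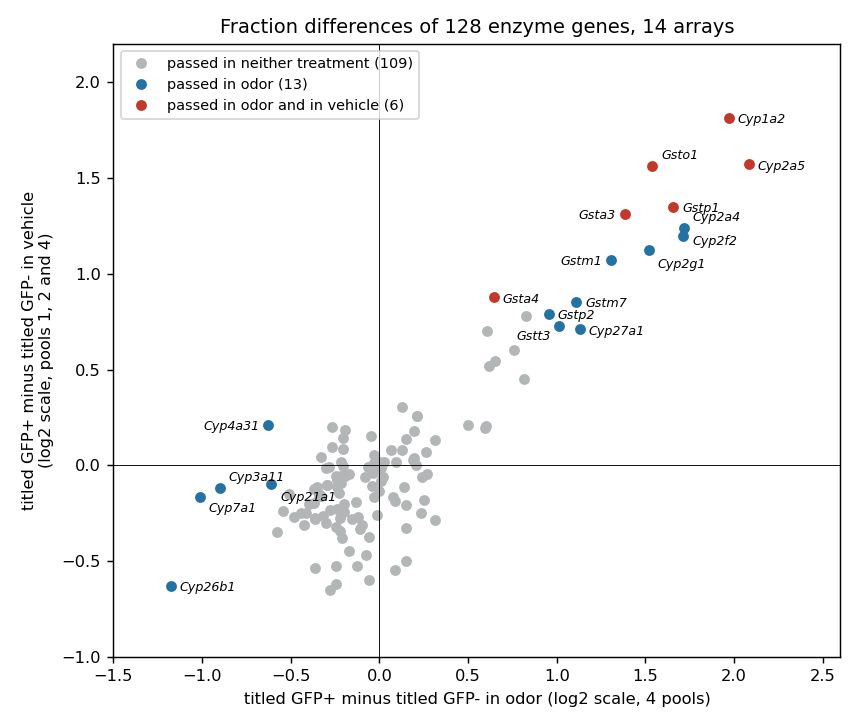
Difference between the fractions (titled GFP+ minus titled GFP-, log2 scale) of each of the 128 enzyme genes in odor (horizontal axis) and vehicle (vertical axis) on 14 arrays; colours give the treatments in which a gene passed. The 6 genes that passed in both treatments lie at the upper right, and Cyp26b1, at -1.18 in odor, is the lowest point on the horizontal axis.

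The olfactory P450 genes of the Cyp2a, Cyp2g and Cyp2f subfamilies were higher in libraries titled GFP+. Cyp2a5, the coumarin hydroxylase that also oxidises nicotine, had levels of 15.51, 14.96, 13.98 and 13.89 in odor pools 1 to 4 titled GFP+ and of 13.08, 13.12, 11.56 and 12.25 in those titled GFP-. The groups did not overlap, and within each fraction pools 3 and 4 were the low ones. The means were 14.59 ± 0.78 and 12.50 ± 0.74 (SD, n = 4 each), a difference of 2.08 ± 0.41 (SE; limma adjusted p = 0.00208 on 14 arrays and 0.0535 on 16). In vehicle pools 1, 2 and 4 its levels were 15.43, 14.10 and 14.40 against 13.35, 12.86 and 12.99, a difference of 1.57 ± 0.47 (adjusted p = 0.0419). Vehicle pool 3 ran the other way, with 11.77 titled GFP+ and 13.86 titled GFP-. On 16 arrays, with that pool included, the vehicle differences were 0.66 for Cyp2a5, 0.82 for Cyp1a2 and 0.34 for Cyp2g1. With the pool of mice as a block the odor difference on 14 arrays was 2.08 ± 0.19 (SE, limma adjusted p = 4.91e-05).

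Cyp2g1, a P450 known almost only from the olfactory mucosa, had odor levels of 15.94, 15.65, 14.67 and 14.61 titled GFP+ and of 14.04, 14.49, 12.96 and 13.30 titled GFP-. The groups stood apart by a small step, between 14.61 and 14.49. The difference was 1.52 ± 0.34 (SE, n = 4 and 4; limma adjusted p = 0.00618 on 14 arrays, 0.087 on 16). In vehicle pools 1, 2 and 4 the levels were 15.87, 15.31 and 15.19 against 14.48, 14.37 and 14.15, a difference of 1.12 ± 0.40 that missed the threshold without the pool block (adjusted p = 0.0906) and passed with it (1.12 ± 0.19, adjusted p = 0.00281). With that block the odor difference on 14 arrays was 1.52 ± 0.16 (limma adjusted p = 0.000135).

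Cyp2f2, which activates naphthalene in airway epithelium, had odor levels of 13.49, 13.19, 11.84 and 11.98 titled GFP+ and of 11.22, 11.98, 9.75 and 10.69 titled GFP-. These groups overlapped, since pools differed as much as fractions, and the difference within a pool was positive in all 7 pools. It was 1.71 ± 0.43 in odor (SE; limma adjusted p = 0.0125 on 14 arrays, 0.099 on 16). In vehicle it was 1.20 ± 0.49 (adjusted p = 0.159), and 1.20 ± 0.23 with the pool block (adjusted p = 0.00673). With that block the odor difference on 14 arrays was 1.71 ± 0.20 (limma adjusted p = 0.000241).

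Cyp2a4, the near-copy of Cyp2a5 that hydroxylates testosterone, had odor levels of 11.96, 10.93, 9.84 and 10.16 titled GFP+ and of 9.08, 10.03, 8.19 and 8.74 titled GFP-. The groups overlapped between 9.84 and 10.03. Its difference was 1.71 ± 0.45 in odor (SE; limma adjusted p = 0.0164 on 14 arrays, 0.102 on 16). In vehicle it was 1.24 ± 0.51 (adjusted p = 0.163), and with the pool block 1.24 ± 0.33 (adjusted p = 0.0381). With that block the odor difference on 14 arrays was 1.71 ± 0.29 (limma adjusted p = 0.00261). Probe sequences were not used here, and how far the probe sets of such near-copies read each other's transcripts was not tested. The same holds for the Gstp, Gstm, Cyp2b, Cyp2c, Cyp3a and Cyp4a copies.

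Cyp1a2 oxidises aromatic amines and caffeine and is a known target of the aryl hydrocarbon receptor. Its odor levels were 9.49, 9.58, 7.85 and 8.02 titled GFP+ against 7.38, 7.09, 5.72 and 6.89 titled GFP-. The fractions did not overlap, and pool 3 was the lowest in both. The difference was 1.97 ± 0.44 (SE; limma adjusted p = 0.00553 on 14 arrays, 0.067 on 16). In vehicle pools 1, 2 and 4 the levels were 9.66, 8.30 and 8.58 against 7.32, 6.78 and 7.00, and the difference was 1.82 ± 0.50 (adjusted p = 0.0278). Its neighbour Cyp1a1, another target of the same receptor, had differences of -0.23 in odor and -0.14 in vehicle and did not pass.

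The alpha-class Gsta3 conjugates activated aflatoxin in the mouse. Its odor levels were 8.05, 7.69, 7.26 and 7.52 titled GFP+ and 6.50, 6.04, 6.22 and 6.23 titled GFP-. Every titled GFP+ library lay above every titled GFP- library, and the difference was 1.38 ± 0.18 (SE; limma adjusted p = 6.17e-05 on 14 arrays, 0.0305 on 16). In vehicle pools 1, 2 and 4 the levels were 7.81, 7.27 and 7.71 against 6.41, 6.10 and 6.33, a difference of 1.31 ± 0.21 (adjusted p = 0.000439). Gsta4, which conjugates the lipid peroxidation product hydroxynonenal, differed by 0.64 ± 0.18 in odor (adjusted p = 0.0284 on 14 arrays) and 0.88 ± 0.21 in vehicle (adjusted p = 0.0115). Both calls of Gsta4 were lost when arrays were centred and under quantile normalization (adjusted p = 0.172 with centring in odor).

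Gstp1, a pi-class enzyme, had odor levels of 8.26, 7.96, 7.00 and 6.62 titled GFP+ and of 5.45, 5.91, 5.99 and 5.87 titled GFP-. The fractions did not overlap; the difference was 1.66 ± 0.30 (SE; limma adjusted p = 0.001 on 14 arrays, 0.0365 on 16). In vehicle pools 1, 2 and 4 the levels were 7.11, 7.85 and 7.35 against 6.08, 5.99 and 6.19, a difference of 1.35 ± 0.34 (adjusted p = 0.0158). Its neighbour Gstp2 differed by 0.96 ± 0.23 in odor (adjusted p = 0.011 on 14 arrays, 0.0626 on 16) and by 0.79 ± 0.27 in vehicle (adjusted p = 0.0795). Gstp3, beside them, differed by -0.03 in odor and 0.05 in vehicle. With the pool block the vehicle difference of Gstp2 did not pass either (0.79 ± 0.27, limma adjusted p = 0.095).

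The mu-class Gstm1 had odor levels of 14.37, 14.41, 13.03 and 13.16 titled GFP+ and of 12.84, 13.29, 11.54 and 12.07 titled GFP-, so that pool 2 titled GFP- lay above pools 3 and 4 titled GFP+. The difference was 1.31 ± 0.39 in odor (SE; limma adjusted p = 0.0359 on 14 arrays, 0.178 on 16). In vehicle it was 1.07 ± 0.45 (adjusted p = 0.167), and with the pool block 1.07 ± 0.19 (adjusted p = 0.00372). With that block the odor difference on 14 arrays was 1.31 ± 0.16 (limma adjusted p = 0.000365). Gstm7 of the same class, at levels near the control median, differed by 1.11 ± 0.26 in odor (adjusted p = 0.00855 on 14 arrays) and by 0.85 ± 0.30 in vehicle (adjusted p = 0.0928). With the pool block Gstm7 did not pass in vehicle either (limma adjusted p = 0.0624).

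Gsto1, an omega-class enzyme that reduces dehydroascorbate, had odor levels of 6.46, 5.96, 5.49 and 5.05 titled GFP+ and of 4.49, 4.27, 3.88 and 4.16 titled GFP-. The fractions did not overlap; the difference was 1.54 ± 0.33 in odor (SE; limma adjusted p = 0.00418 on 14 arrays, 0.0783 on 16) and 1.56 ± 0.38 in vehicle (adjusted p = 0.012). The theta-class Gstt3 differed by 1.02 ± 0.29 in odor (adjusted p = 0.0266 on 14 arrays) and 0.73 ± 0.33 in vehicle (adjusted p = 0.206). With the pool block Gstt3 did not pass in vehicle either (limma adjusted p = 0.0755). Gsto1, Gstm7, Gstt3 and Cyp27a1 had mean levels under the median of the negative controls. Their lower levels may therefore be background readings, and their differences are those of the deposited values.

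**Figure D2:**
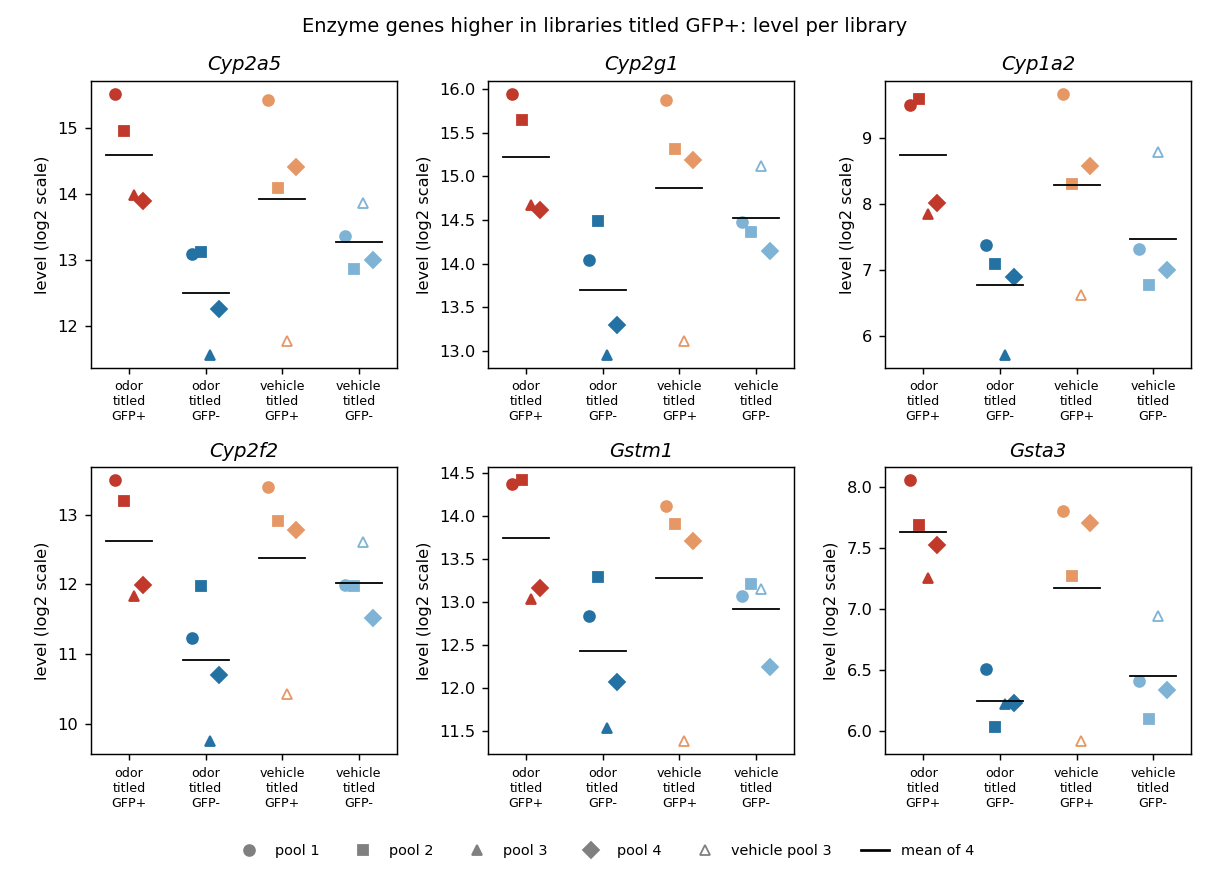
Level (log2 scale) of 6 enzyme genes in each of the 16 libraries by group; point shapes mark the pool of mice, open triangles the libraries of vehicle pool 3, and bars the mean of 4 libraries. For Cyp2a5 the odor libraries titled GFP+ lie between 13.89 and 15.51 and those titled GFP- between 11.56 and 13.12, while the open triangles are in the opposite order.

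Genes that passed lay beside genes that did not. On chromosome 7 the array measured 13 Cyp2 genes that follow one another in RefSeq order: Cyp2s1, Cyp2b10, Cyp2b13, Cyp2b9, Cyp2a4, Cyp2b23, Cyp2b19, Cyp2g1, Cyp2a5, Cyp2a22, Cyp2a12, Cyp2f2 and Cyp2t4. Cyp2a4, Cyp2g1, Cyp2a5 and Cyp2f2 were higher in odor on 14 arrays, while the other 9 did not pass and had differences from -0.58 (Cyp2s1) to 0.24 (Cyp2t4). Within the mu class Gstm7 and Gstm1 passed; Gstm5 (0.83, adjusted p = 0.0865) and Gstm2 (0.50) did not, and Gstm6, Gstm3 and Gstm4 lay between -0.32 and -0.20. In the theta class Gstt1 (0.01) and Gstt4 (-0.06) stood between Gstt3 and Gstt2 (0.76, adjusted p = 0.13). Gsto2, beside Gsto1, differed by -0.24 in odor. Of the neighbours that did not pass, all of those named in this paragraph except Cyp2s1, Cyp2b10, Gstm2, Gstm3, Gstm4 and Gstm5 had mean levels under the control median.

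**Figure D3:**
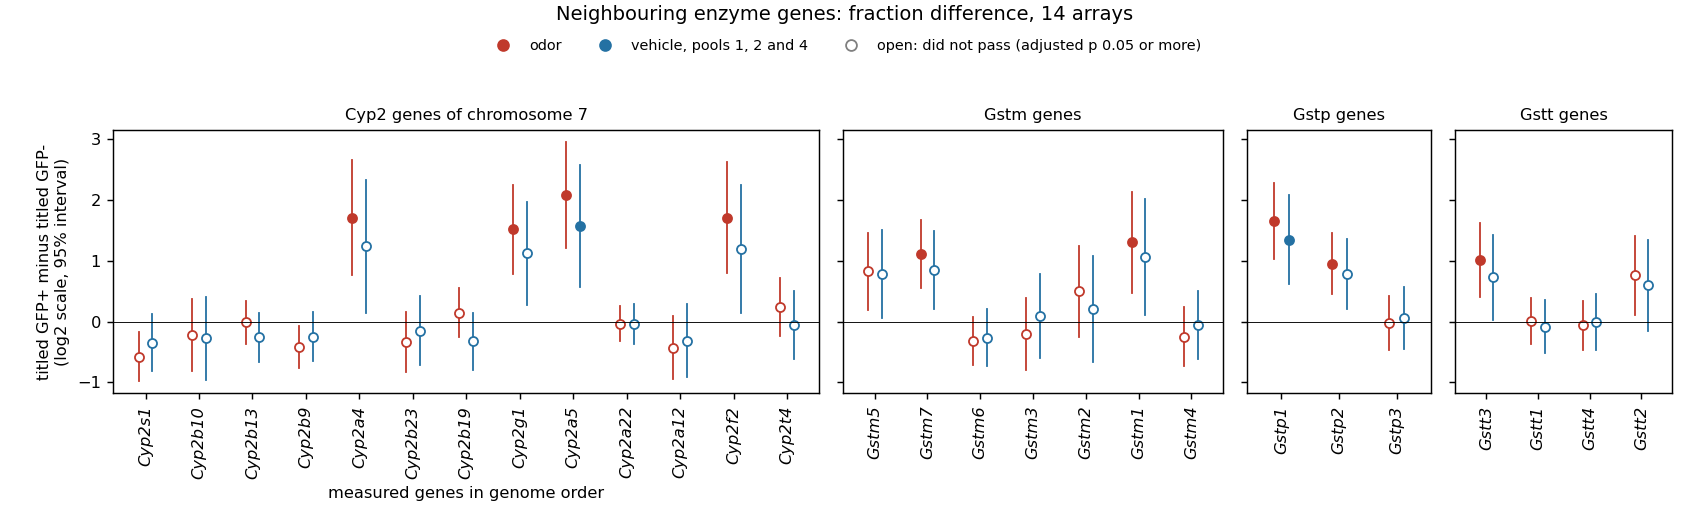
Difference between the fractions (titled GFP+ minus titled GFP-, log2 scale) with its 95% interval for neighbouring Cyp2, Gstm, Gstp and Gstt genes in genome order, in odor (red) and vehicle (blue) on 14 arrays; filled points passed. Cyp2a4, Cyp2g1, Cyp2a5 and Cyp2f2 have filled points in odor, and the other 9 Cyp2 genes have odor differences from -0.58 to 0.24.

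The P450 genes of sterol, bile acid, steroid, retinoid and vitamin D metabolism went in both directions. They were grouped by family number, and the group also holds Cyp20a1, whose substrates are not well known. Of 17 such genes 1 was higher and 3 lower in odor on 14 arrays, and 0 passed in vehicle, where 13.2% and 11.2% of all genes passed, with median differences of -0.22 and -0.16. Cyp27a1, the mitochondrial sterol hydroxylase, was the higher one, with odor levels of 4.73, 5.32, 4.36 and 4.25 titled GFP+ and of 3.35, 3.89, 3.15 and 3.77 titled GFP-. The fractions did not overlap, and the difference was 1.13 ± 0.25 (SE; limma adjusted p = 0.006 on 14 arrays, 0.0384 on 16). Among the 14 genes higher in odor it alone was also higher in the titled GFP+ library of vehicle pool 3, at 3.47 against 3.37. In vehicle on 14 arrays with the pool block Cyp27a1 differed by 0.71 ± 0.21 (SE, limma adjusted p = 0.0597) and did not pass.

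Cyp26b1, which breaks down retinoic acid, was lower, with odor levels of 6.83, 6.48, 6.47 and 6.85 titled GFP+ and of 7.65, 8.06, 8.29 and 7.35 titled GFP-. The fractions stood apart, at 6.66 ± 0.21 and 7.84 ± 0.42 (SD, n = 4 each), a difference of -1.18 ± 0.25 (SE; limma adjusted p = 0.00342 on 14 arrays, 0.0651 on 16). In vehicle pools 1, 2 and 4 the levels were 6.71, 6.55 and 6.45 against 7.56, 6.48 and 7.54; the pool 2 library titled GFP- lay among those titled GFP+, and the difference was -0.63 ± 0.28 (adjusted p = 0.203).

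Cyp7a1, the rate-limiting enzyme of bile acid synthesis, was read at 4.64, 4.19, 4.44 and 4.61 in the odor libraries titled GFP+ and at 5.58, 5.43, 5.46 and 5.46 in those titled GFP-. The difference was -1.01 ± 0.15 (SE; limma adjusted p = 0.00016 on 14 arrays, 0.0315 on 16). The steroid 21-hydroxylase gene Cyp21a1 was read at 3.82, 3.68, 3.88 and 3.80 against 4.50, 4.38, 4.35 and 4.39, a difference of -0.61 ± 0.15 (adjusted p = 0.011 on 14 arrays). Both had mean levels under the control median, as had Cyp3a11, a steroid and drug oxidase (-0.90 ± 0.24, adjusted p = 0.0172), and Cyp4a31, of the fatty acid hydroxylases (-0.63 ± 0.16, adjusted p = 0.0145). With genes under that median left out, none of these 4 remained in the test. In vehicle on 14 arrays the differences of Cyp7a1, Cyp21a1, Cyp3a11 and Cyp4a31 were -0.17, -0.10, -0.12 and 0.21.

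**Figure D4:**
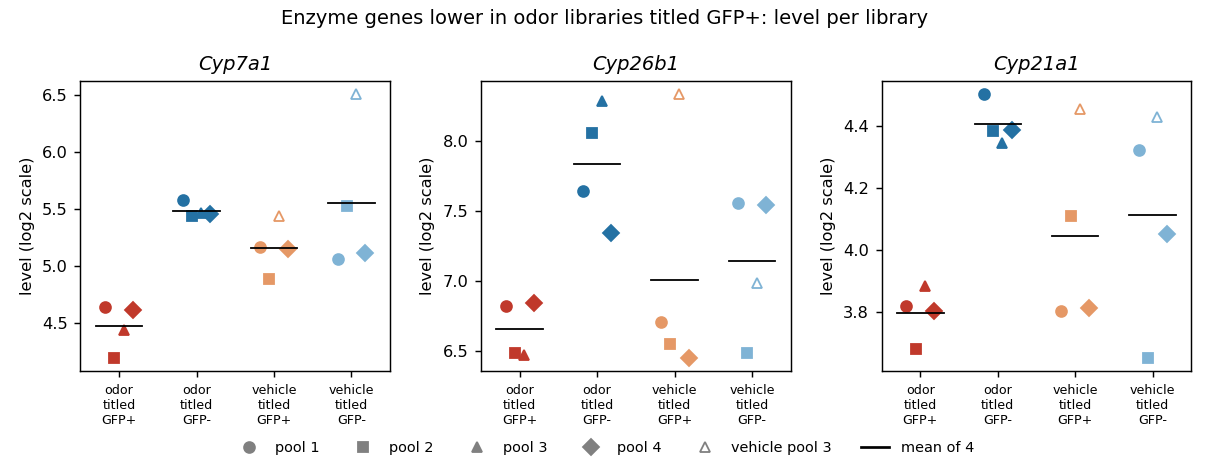
Level (log2 scale) of Cyp7a1, Cyp26b1 and Cyp21a1 in each of the 16 libraries by group; point shapes mark the pool, open triangles vehicle pool 3, and bars the mean of 4. In odor the titled GFP+ libraries of Cyp7a1 lie between 4.19 and 4.64 and the titled GFP- libraries between 5.43 and 5.58, while in vehicle the fractions overlap for all 3 genes.

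On 14 arrays 0 of 5 Cyp2b, 0 of 14 Cyp2c and 0 of 9 Cyp2d genes passed in either treatment, where 13.2% of all genes passed in odor and 11.2% in vehicle, with median differences in odor of -0.22, -0.21 and -0.33. Of 9 Cyp3 genes 1 was lower in odor (Cyp3a11), and of 21 Cyp4 genes 1 (Cyp4a31). Among the Ugt genes the 8 Ugt2 genes had differences in odor from -0.36 to 0.15. Ugt8a, which makes the galactolipid of myelin, had the largest Ugt difference, at 0.61 ± 0.20 in odor (limma adjusted p = 0.0572) and 0.70 ± 0.23 in vehicle (adjusted p = 0.0641). Its pool means lay between 4.29 and 4.76, under the control median.

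Counted by pool, without a test, 18 of the 128 genes were higher in the titled GFP+ library in all 7 pools that remain without vehicle pool 3 (14.1%, against 10.7% of all genes), and they held all 14 genes called higher in odor. Lower in all 7 were 4 genes, Cyp2c55, Cyp2j13, Cyp2w1 and Cyp2s1 (3.12%, against 10.5%). The 5 genes called lower in odor were lower in all 4 odor pools, and 0 of them in all 3 vehicle pools. With the arrays centred, 43 of the 128 genes were lower in all 7 pools. Centring moved all genes down as well, with a median difference in odor of -0.43 in place of -0.08. The share of all genes lower in all 7 pools with centring is not given here, so the 43 is not a result about the enzymes. With the pool block on 14 arrays Cyp2j12 was higher in odor (0.65 ± 0.13, limma adjusted p = 0.00753) and vehicle (0.55 ± 0.15, adjusted p = 0.0429), Gstt2 was higher in odor (0.76 ± 0.20, adjusted p = 0.0286), and Cyp2s1 was lower in odor (-0.58 ± 0.14, adjusted p = 0.0237).

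Other genes of foreign-compound handling were counted from a fixed list of 68, of which 64 were measured. In odor 6 were higher and 0 lower on 14 arrays, where 8.59% of all genes were higher and 4.59% lower (1 and 0 on 16), and in vehicle 7 were higher and 1 lower, where 7.86% and 3.32% were; the median difference was 0.11 in odor. Sult1c1, a sulfotransferase, had odor levels of 12.07, 12.56, 10.39 and 9.99 titled GFP+ and of 8.62, 9.28, 7.10 and 7.58 titled GFP-, a difference of 3.10 ± 0.55 (SE; limma adjusted p = 0.000961). Mgst1, a membrane-bound glutathione transferase outside the Gst classes above, differed by 2.76 ± 0.41 (adjusted p = 0.000202), and the oestrogen sulfotransferase Sult1e1 by 1.91 ± 0.23 (adjusted p = 2.68e-05). Glutathione reductase, Gsr, differed by 1.01 ± 0.20 (adjusted p = 0.0023). In vehicle the 1 lower gene was the epoxide hydrolase Ephx1 (-0.94 ± 0.26, adjusted p = 0.029), which differed by -0.45 ± 0.23 in odor (adjusted p = 0.254).

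Of 19 measured receptors and regulators of these enzymes 0 were higher and 1 lower in odor on 14 arrays. Over all genes 8.59% were higher and 4.59% lower. The lower regulator was the small Maf protein gene Maff (-0.73 ± 0.18, limma adjusted p = 0.0102). The aryl hydrocarbon receptor gene Ahr differed by -0.34 ± 0.22 (adjusted p = 0.377) and the antioxidant regulator Nfe2l2 by -0.12 ± 0.19 (adjusted p = 0.771). Of 9 haem synthesis genes 1 was higher, where 8.59% of all genes were. It was Alas1, the first enzyme of the pathway (0.64 ± 0.16, limma adjusted p = 0.0117).

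Markers of several other cell types moved with the enzymes. In bulk libraries of sorted cells, fewer cells of a type and less RNA per cell cannot be told apart. The marker counts are for odor on 14 arrays, where 8.59% of all genes were higher and 4.59% lower. Of 8 sustentacular markers other than Cyp2g1, 5 were higher in odor on 14 arrays; their mean level ranged from 6.59 to 7.57 over the odor libraries titled GFP+ and from 5.01 to 5.84 over those titled GFP-, with Krt18 at 10.90, 10.76, 9.64 and 9.22 against 7.03, 7.08, 5.56 and 5.84. Of 8 Bowman gland markers 4 were higher, with a mean level of 7.46 to 9.20 against 5.69 to 6.46. All 8 microvillar and ionocyte-like markers were higher (8.27 to 9.50 against 5.56 to 5.90), as were 9 of 10 myeloid (9.69 to 11.8 against 5.30 to 6.96), 4 of 4 lymphoid and 5 of 5 globose basal markers. Of 6 immature olfactory neuron markers 4 were higher, with a mean level of 12.8 to 13.2 against 10.7 to 10.8, and of 2 measured red blood markers 1 was, with 8.48 to 10.5 against 7.37 to 7.77. Of 5 respiratory and ciliated markers 2 were higher and 1 lower, and 1 of 5 fibroblast markers was higher. None of the 5 endothelial, 5 horizontal basal and 4 ensheathing glia markers passed. Of 10 mature neuron markers 0 were higher and 1 lower, and the 4 genes that neuronal activity raises were all lower. None of 6 hepatocyte markers passed; their mean level lay between 4.06 and 4.66 in all libraries, under the control median. Which of these cell types carried the enzyme RNA was not tested.

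The level of the enzymes also varied between pools of mice, whatever the fraction. For Cyp2a5 the means of a pool's 2 libraries were 14.30, 14.04, 12.77 and 13.07 in odor pools 1 to 4 and 14.39, 13.48, 12.81 and 13.70 in vehicle pools 1 to 4. The 3 lowest pools were odor 3, odor 4 and vehicle 3. The same 3 pools were lowest for Cyp2g1, Cyp2a4, Cyp2f2, Gstm1, Gsto1 and Gstp1. For the other 7 genes called higher in odor the lowest 3 differed: odor 3, odor 4 and vehicle 2 for Cyp1a2, odor 3, vehicle 2 and vehicle 3 for Gsta3 and Cyp27a1, and still others for Gsta4, Gstm7, Gstp2 and Gstt3. Odor 3, odor 4 and vehicle 3 were also lowest in the mean level of the microvillar, myeloid, lymphoid and red blood marker lists and for Krt18; in the sustentacular list and for Krt8 vehicle 4 took the place of vehicle 3. In the Bowman gland list odor 3, vehicle 2 and vehicle 3 were lowest, and in the globose basal list odor 2, odor 3 and odor 4. The part of these cell types in the pool levels was not tested.

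Odor against vehicle was compared over pool means, which do not depend on the fraction labels. None of the 128 genes passed (limma, 0 of 128 where 0.0103% of all genes passed by adjusted p). An unadjusted p under 0.05 was found for 6 of 128 and for 1402 of all 19505 genes. The differences, odor minus vehicle, ran from -0.43 for Cyp2f2 to 0.41 for Ugt2b38. For Cyp2a5 the difference was -0.05 (95% interval -0.87 to 0.77), for Cyp1a2 -0.13 (-0.88 to 0.62) and for Cyp2g1 -0.24 (-0.92 to 0.44). For 127 of 128 genes the 95% interval lay within -1 to 1, the exception being Cyp2f2 (-1.26 to 0.40), and for 122 it included 0. Of the 6 genes with an unadjusted p under 0.05, Ugt2b38 (0.41) and Cyp2ab1 (0.36) were higher in odor. Cyp2d13 (-0.38), Gsto2 (-0.31), Cyp4f37 (-0.30) and Cyp26a1 (-0.25) were lower. All 6 had limma adjusted p of 0.62 or more over all genes. The means of Ugt2b38, Gsto2 and Cyp26a1 lay under the control median in every pool.

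**Figure D5:**
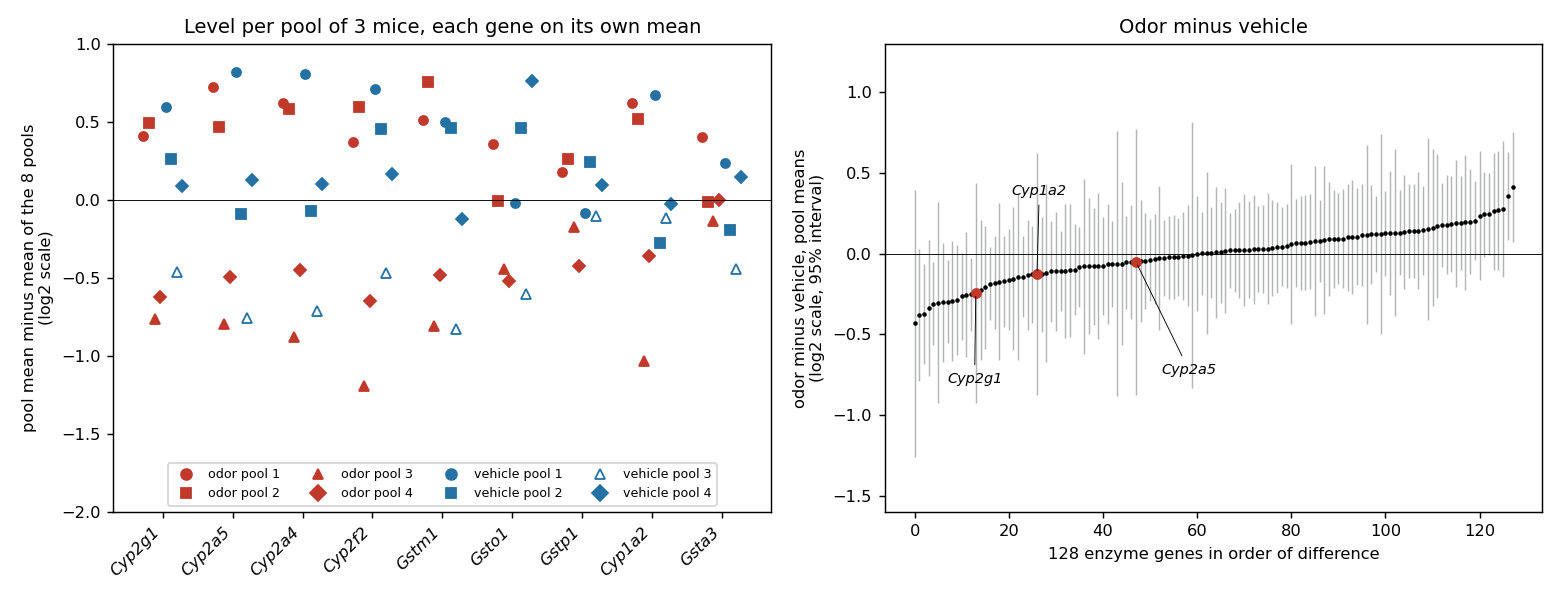
Left, mean level of each pool's 2 libraries minus the mean of the 8 pools (log2 scale) for 9 enzyme genes, odor pools in red and vehicle pools in blue; right, odor minus vehicle over pool means with 95% intervals for the 128 genes in order. Cyp2a5 spans 1.62 between its highest and lowest pool, while its difference between treatments is -0.05.

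Within the titled fractions odor against vehicle also gave 0 of 128 genes by limma. In titled GFP+, 6 of the 128 and 908 of all 19505 genes had an unadjusted p under 0.05 on 16 arrays. On 14 arrays 4 of the 128 and 1518 of all genes did. By adjusted p 0% and 0.0359% of all genes passed. In titled GFP-, 6 of the 128 and 1241 of all genes had such a p on 16 arrays, and 6 and 1472 on 14 arrays. By adjusted p 0.0103% and 0.0256% of all genes passed there. The difference of the fraction differences, odor minus vehicle, likewise gave 0 of 128, where 0.00513% of all genes passed on 16 arrays and 0.0103% on 14. An unadjusted p under 0.05 was found for 3 of the 128 and 581 of all genes on 16 arrays, and for 6 and 523 on 14. For Cyp2a5 it was 0.51 (95% interval -0.82 to 1.84; adjusted p = 1.00 on 14 arrays). For Cyp7a1, called in odor and not in vehicle, it was -0.85 (-1.33 to -0.36; unadjusted p = 0.00204, limma adjusted p = 1.00), so a difference between treatments in its fraction difference did not pass.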

How the data were processed

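Affymetrix Expression Console gave the log2 values that the authors deposited and that are called levels here, as the submitters' processing notes record it; version, summarization and build: not given in the sources used here. Nothing was rescaled. A gene with several probe sets was read by the one with the highest mean; symbols came from the platform annotation. All 128 enzyme genes had the same symbol in RefSeq. Groups followed the titles.

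Differences were fitted with limma 3.58.1 in R 4.3.3, with a mean for each of 4 groups and no block, and adjusted by Benjamini-Hochberg over 19505 genes (threshold 0.05, two-sided); odor was also compared with vehicle over 8 pool means. Fits were tested on simulated data. The number of arrays limits the precision. Same-numbered libraries of a treatment came from the same mice, so they are paired between fractions: their deviations from group means correlated at -0.02 to 0.29. For Cyp2a5, Cyp2g1, Cyp2f2, Cyp2a4 and Gstm1 the pool block gave smaller SE than the fit without it. Alternatives were centring, quantile normalization, a filter on dim probe sets, averaged probe sets, trend and robust variance, pool or number blocks, and leaving out each library.

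The members, lists, tests and the set of 14 arrays were chosen with earlier results of these data known. Named were Cyp2a5, Cyp1a2 and Cyp2g1, the members with the smallest p in each comparison (12 for fractions in odor, 8 in vehicle, 6 over pool means, 4 elsewhere), those called on 16 arrays, 3 of large range, and 3 genes of the companion and marker lists by p. Others, such as Cyp1a1, Cyp2j12, Cyp2s1, Gstt2, Gstt3, Gstm5, Gsr and Ephx1, were chosen after their values were seen. Near-copies by protein identity were not assessed here.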

Additional observations from a re-analysis of the deposited data

Results flagged for a closer look

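The 29 genes named by rule, most of them for a small p or a large range, gave 116 groups of 4 libraries. In these groups 4 single libraries lay far from the other 3. Chance gives about 1 in 20 groups such a library, so 4 was not above that rate. Gstm1 had a level of 11.39 in vehicle titled GFP+ pool 3, against 13.71 to 14.11 in the other pools, and Gstp1 a level of 7.34 in vehicle titled GFP- pool 3, against 5.99 to 6.19. Cyp26b1 had a level of 8.34 in vehicle titled GFP+ pool 3, against 6.45 to 6.71. All 3 are libraries of the pool whose fractions stood in the opposite order. Gstm1 also had a level of 12.24 in vehicle titled GFP- pool 4, against 13.07 to 13.21.

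All 128 genes were searched for fraction differences of opposite sign in the odor and vehicle pools, in either direction. Only Cyp2j11 had them. It was higher in the titled GFP+ library of every odor pool and lower in that of every vehicle pool. The share of all genes with such signs was not counted, and a search of so many genes can find such a gene by chance. The mean difference between the fractions was 0.45 higher in odor than in vehicle over all 8 pools. This sign pattern was not tested as such; on 14 arrays the difference of the fraction differences was 0.43 ± 0.29 (SE, limma adjusted p = 1.00), and its mean level lay under the control median.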

How the results depend on the processing

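Counts of enzyme genes past the threshold depended on vehicle pool 3, on scaling and on the filter, and the cause was otherwise not tested. Leaving out vehicle pool 3 removed no odor library and left the odor differences as they were (1.97 for Cyp1a2 on 16 and on 14 arrays). What changed for odor was the spread estimated in 1 fit for all 4 groups, with its degrees of freedom. In odor on 16 arrays the count of 7 became 33 with centred arrays, 3 without dim genes, 0 with the pool as replicate block and 19 without vehicle pool 3; leaving out single libraries gave 0 to 17, with 0 without any of odor pools 1 to 3 in either fraction or pool 4 titled GFP-, and 17 without vehicle titled GFP+ 3. In vehicle on 16 arrays 0 became 6 without pool 3, and 0 to 2 without single libraries (2 without vehicle titled GFP+ 3). On 14 arrays the odor count of 19 became 64 with centring and 12 without dim genes, and 14 to 22 without single libraries. On both sets of arrays the filter on dim genes left 32 of the 128 enzyme genes in the test. It took out 4 of the 14 genes called higher and 4 of the 5 called lower on 14 arrays. Shares of all genes under the filter and without single libraries are not given here. The vehicle count of 6 became 38 with centring, 11 with the pool block, and 4 to 8 without single libraries. Enzyme genes lower in all 7 pools numbered 43 with centring and 8 with quantile normalization, both added after seeing the data. The shares of all genes under these 2 settings are not given here. All counts for odor against vehicle and for the difference of fraction differences stayed at 0.

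On 14 arrays the odor calls of Cyp1a2, Cyp2a5, Cyp2f2, Cyp2g1, Cyp7a1, Cyp21a1, Cyp26b1, Cyp27a1, Gsta3, Gstm7, Gsto1 and Gstp1 held under every alternative that tested them. Calls were lost without single libraries for Cyp2a4 and Cyp3a11 (odor titled GFP+ 1, titled GFP- 3), Cyp4a31 (titled GFP- 4), Gsta4, Gstm1 and Gstt3, and under quantile normalization for Gstp2 (adjusted p = 0.0753) and Gsta4. The fits without single libraries had no pool block. Of the 6 vehicle calls on 14 arrays that of Gsta3 held under every alternative. Calls were lost without single libraries for Cyp2a5 (6 libraries), Cyp1a2 (3), Gsto1 and Gstp1 (2 each) and Gsta4 (1), under quantile normalization for Cyp1a2, Gstp1 and Gsta4, and under centring for Gsta4.

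No call changed sign, but uncalled differences did. Odor minus vehicle in titled GFP+ on 16 arrays became -0.054 for Cyp2a5, -0.11 for Cyp1a2 and -0.24 for Cyp2g1 without vehicle pool 3. On 14 arrays the replicate number as block gave 0.20 for Cyp2a5 and 0.21 for Cyp1a2 in titled GFP+ and 0.058 for Cyp1a2 in titled GFP-. Leaving out single libraries gave, for odor minus vehicle in titled GFP+ on 16 arrays, -0.054 to 1.16 for Cyp2a5, -0.11 to 0.90 for Cyp1a2 and -0.24 to 0.68 for Cyp2g1. On 14 arrays it gave -0.36 to 0.34 for Cyp2a5 and -0.39 to 0.30 for Cyp1a2 in titled GFP+, and -0.47 to 0.086 for Cyp1a2 in titled GFP-. The difference of fraction differences of Cyp1a2 ran from -0.20 to 0.56 on 14 arrays. Over pool means, leaving out single pools gave -0.31 to 0.22 for Cyp2a5 and -0.36 to 0.19 for Cyp1a2. Same-numbered libraries of odor and vehicle correlated at -0.12 to 0.31.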

Other observations

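Some enzyme genes with mean levels above the 95th percentile of the negative controls did not pass between the fractions, and they were chosen after their values were seen. Cyp2u1, which hydroxylates long-chain fatty acids, had levels between 11.03 and 11.82 over the 16 libraries, and its difference in odor on 14 arrays was -0.22 (95% interval -0.54 to 0.094; limma adjusted p = 0.406). Cyp20a1, a P450 whose substrates are not well known, had levels between 10.33 and 11.49 and a difference of -0.22 (-0.81 to 0.38; adjusted p = 0.709). Cyp2s1, in the same stretch of chromosome 7 as Cyp2a5, had levels between 12.54 and 13.80 and a difference of -0.58 (-0.98 to -0.17; adjusted p = 0.0587), opposite in sign to the 2.08 of Cyp2a5.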
